A study of Mus musculus with 2 samples.

Results

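Malat1, Neat1, Kcnq1ot1, Gm42418 and Lars2 were followed through single-cell RNA-seq of mouse parotid gland, 5 of the 48825 features counted. They were taken by gene symbol. Their levels across cell types, secretory RNA content and conditions in these same libraries were known when they were chosen, so those levels are given as a description with no test. Of the 5, 4 are long non-coding RNAs and Lars2 is protein coding. All 5 were found in both libraries and each had at least 2188 UMIs (counted RNA molecules) in each of them.

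The glands came from wild-type (WT) female C3H mice. In the IR group the head and neck received 6 Gy on each of 5 days, 30 Gy in total, and glands were taken 10 months later, when mice were about 1 year old. Control mice of about the same age were not irradiated. Each library pooled the cells of 2 mice, so the mice cannot be separated and a difference between conditions cannot be told apart from a difference between 2 libraries. The intervals below are 95% intervals of the UMI counts and cover counting error only.

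Malat1 is an abundant RNA of nuclear speckles, the bodies where splicing factors gather, and Neat1 is the scaffold of paraspeckles, which form beside them. Kcnq1ot1 is the paternally expressed antisense RNA that silences neighbouring genes of the Kcnq1 imprinted domain. Gm42418 is annotated as a long non-coding RNA at a ribosomal RNA locus, and Lars2 encodes the enzyme that charges mitochondrial leucine tRNA. Nuclear RNAs stay behind when a cell loses its cytoplasm, and ribosomal RNA can enter oligo-dT libraries through internal A-rich stretches.

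Positions and transcripts were read from GENCODE M21 on GRCm38, the build of the files. Malat1 lies on the minus strand at chr19:5795690-5802672 and Neat1 on the same strand at chr19:5824708-5845478, with 22035 bases between them. Kcnq1ot1 spans chr7:143203458-143296549 on the minus strand as 1 unspliced transcript of 93092 bases. Gm42418 is a single-exon gene of 1831 bases on the plus strand at chr17:39846958-39848788, and Lars2 spans chr9:123366927-123462666 on the plus strand with 9 annotated transcripts.

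The library chemistry captures RNA by its poly(A) tail, so the last 30 bases of the annotated transcripts are shown first. Capitals mark AATAAA, the usual polyadenylation signal, which stood in the last 30 bases of 23.3% of 141767 annotated transcripts.
Malat1-201, chr19:5795690-5795719: ttttatgaAATAAAaactaaatatctctca
Neat1-202, the short transcript, chr19:5842307-5842336: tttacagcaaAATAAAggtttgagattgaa
Neat1-201, the long transcript, chr19:5824708-5824737: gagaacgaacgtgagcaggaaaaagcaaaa
Kcnq1ot1-201, chr7:143203458-143203487: taatAATAAAgacattaaaatccacaaaac
Lars2-201, within its 3′ UTR, chr9:123462635-123462664: accattgaattAATAAAtgttgtgaaccat
Gm42418-201, chr17:39848759-39848788: ggtcgccctgccgcccccagggtcgggggg
The signal was present at the annotated ends of Malat1, short Neat1, Kcnq1ot1 and the main Lars2 transcript. Where the captured RNAs themselves ended was not read, and it can differ from the annotated end. It was not among the last 30 bases of long Neat1 or of Gm42418, whose last 30 bases held 1 A.

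Runs of at least 10 A inside a transcript, which can also bind oligo-dT, stood in 7.18% of the annotated transcripts. The longest runs of the nuclear RNAs are shown in capitals.
Malat1-201, 12 A, chr19:5795979-5796008: cctagctttAAAAAAAAAAAAgcaaaagac
Kcnq1ot1-201, 41 A, chr7:143226936-143226994: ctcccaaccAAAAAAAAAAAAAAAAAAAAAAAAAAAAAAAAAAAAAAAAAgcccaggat
Kcnq1ot1 had 10 such runs and Malat1-201 had 1. These runs lie inside the annotated transcripts, and whether capture began at them was not tested. The longest run was 7 A in Neat1-201, and 6 A in both Gm42418 and Lars2-201. The GC content was 60.2% in Gm42418 and between 40.3% and 51.2% in the main transcripts of the other 4 genes.

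Gm42418 lies wholly under CT010467.1, which is annotated as ribosomal RNA on the opposite strand. When searched against 360 transcripts annotated as ribosomal RNA or belonging to this locus, bases 1 to 1244 of Gm42418 were 100% identical to CT010467.1-201 read on the opposite strand. A 60-base stretch that Gm42418 shares with AY036118, a gene of 923 bases inside it on the other strand, shows the arrangement at chr17:39847113-39847172.
Gm42418, plus strand: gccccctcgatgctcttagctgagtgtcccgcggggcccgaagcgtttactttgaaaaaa
AY036118, minus strand: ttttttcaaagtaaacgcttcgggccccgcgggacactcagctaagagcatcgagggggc
AY036118 was listed with 0 UMIs in both libraries, so any UMIs counted from the shared bases stood under Gm42418. The strand named here for the ribosomal RNA is that of the annotation alone, and which strand is the ribosomal RNA itself was not tested. Whether counting used the strand of the read is not given in the sources used here, so the strand of the counted RNA was not determined. No match was found in Malat1, Neat1 or any of the 9 Lars2 transcripts, and the full ribosomal RNA precursor was not searched, so this says nothing of other ribosomal sequence in Lars2. Kcnq1ot1 had 2 short matches to 1 ribosomal RNA gene, the longer over 56 bases with 89.3% identity.

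There were 22707876 UMIs over 5550 barcodes in control and 23890757 over 7793 in IR. A barcode counted as a cell from 200 genes upwards if mitochondrial genes took no more than 5% of its UMIs. These kept cells numbered 3378 in control with a median of 2907.5 UMIs and 5286 in IR with a median of 2461.5. Another 912 control and 649 IR barcodes had fewer than 200 genes, and 1260 and 1858 had more genes but over 5% mitochondrial UMIs. In the kept cells 46.3% of control UMIs and 33.0% of IR UMIs came from 21 genes of secreted salivary proteins, here called the secretory list. These UMIs fill the total, so levels are given as CPM, the UMIs of a gene per 1000000 UMIs outside that list, unless CPM of all UMIs is named. The libraries shared 12 barcodes, of which 3 were kept in both.

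Kept cells were clustered and named by marker genes, which gave 16 classes. The names mean that cells resembled a type by its markers. A cluster led by S100a8 and S100a9 is called by these genes. It carried 8 of 8 macrophage markers, among them Adgre1. Its 10 leading genes held 0 of these but 1 dendritic cell marker, Xcr1, so it was left without a type. The acinar class expressed 8 of 10 acinar markers, the Etv1+ class 9 of 9, the B-cell class 7 of 8 and the macrophage class 7 of 8, without Adgre1. The Etv1+ class also carried 10 acinar markers, so the acinar markers alone did not set it apart from the acinar class.

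Malat1 had 300224 UMIs in all control barcodes and 311799 in all IR barcodes, 1.32% and 1.31% of the UMIs. It was highest in dendritic cells of both libraries, with 71804 CPM (70786 to 72833) in control and 46627 (46035 to 47226) in IR. The next classes in control, the S100a8/S100a9 cluster at 28924 and endothelial cells at 28801, could not be separated from each other by their intervals. B cells held 27915 CPM in control and 22028 in IR, and Lef1+ T cells 20829 and 17825. Levels were far lower in acinar cells, with 3008 (2865 to 3156) in control and 2783 (2651 to 2921) in IR. In control the lowest level was in striated duct cells at 2278 CPM. The highest class exceeded the lowest 31.5-fold in control and 16.8-fold in IR.

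The share of cells with a Malat1 UMI was lower in acinar cells too. All 838 control B cells and 99.9% of IR B cells had one, against 49.7% of control and 31.3% of IR acinar cells. Acinar cells had more UMIs than B cells, with medians of 5197.5 and 2538.5 in control. After each cell was thinned to 1000 UMIs, 23.1% of control and 19.3% of IR acinar cells had a Malat1 UMI, and 100% and 99.9% of B cells. Barcodes under 200 genes, which are not cells by the filter, had one in 36.7% of control and 29.0% of IR barcodes at medians of 1036.5 and 874 UMIs. These barcodes were not thinned, and their shares lay above those of thinned acinar cells but below those of unthinned ones. Their Malat1 level was lower, at 551 CPM in control and 635 in IR, against 3008 and 2783 in acinar cells.

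In some classes a few cells carried much of the Malat1. In the macrophage class the 5 richest of 106 control cells held 75.7% of 243 UMIs and the 5 richest of 84 IR cells held 59% of 590. In striated duct cells the 5 richest held 67.9% of 131 control UMIs and 54.4% of 458 IR UMIs. In the other classes with low levels the share was smaller, with 27.2% and 17.9% in acinar cells and 36.2% and 20.6% in cycling cells. It was high in the small MEC (myoepithelial) class too, with 72.7% of control UMIs in 5 of 18 cells. Median depth in macrophages and striated duct cells was low, 703 and 745 UMIs in the former and 723.5 and 2002 in the latter. Whether these few cells were doublets was not tested, since the doublet caller marked 32 control cells and 1 IR cell and so did not work for the IR library.

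Neat1 was read from 7136 control and 6991 IR UMIs and was spread differently. Its highest classes in control were the S100a8/S100a9 cluster at 1576 CPM, endothelial cells at 1527 and stromal cells at 1417, whose intervals overlapped from each to the next. In IR stromal cells were highest at 2219 (1914 to 2559), although this class held 17 cells. Etv1+ cells, the secretory cells marked by the transcription factor Etv1, held 1107 (1057 to 1158) in control and 1465 (1396 to 1537) in IR. Acinar cells were lowest in control at 78.1 CPM, and cycling cells were lowest in IR at 74.5.

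The ratio of Neat1 to Malat1 is the same whichever total is used. Over all kept cells there were 2.4 Neat1 UMIs per 100 Malat1 UMIs in control and 2.12 in IR. Etv1+ cells had 6.17 (5.88 to 6.46) and 10.0 (9.51 to 10.5), and intercalated duct cells 7.18 and 9.22, where 5 cells held 57.4% and 45.4% of the Neat1 UMIs. Stromal cells had 5.24 and 7.72, the S100a8/S100a9 cluster 5.45 and 6.41 and endothelial cells 5.30 and 3.35. Lef1+ T cells had 0.839 and 0.957, and B cells 0.890 and 0.960. The paraspeckle RNA was thus higher against the speckle RNA in these 5 classes than in B cells and Lef1+ T cells. This held in both libraries and beyond counting error. The 5 were taken from 16 classes, and others were higher too. Striated duct cells were highest in control, from 15 Neat1 UMIs, and macrophages in IR, from 68. Acinar cells had 2.60 and 3.02 and MEC 2.55 and 2.95. Cd8+ T, NK and dendritic cells also exceeded B cells and Lef1+ T cells in both libraries. Foxp3+/Trdc+ T cells and cycling cells did so in control alone. In Etv1+ cells with a secretory share of 50% or more the ratio was 5.65 and 8.05. In those below it was 10.6 and 19.0.

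Kcnq1ot1 had 3145 UMIs in control and 3729 in IR. NK cells were highest with 529 CPM (395 to 694) in control and 545 (439 to 669) in IR. In control 37 of the 52 UMIs lay in 5 of 29 NK cells, and the interval overlapped that of Foxp3+/Trdc+ T cells at 353 (312 to 397). B cells held 336 and 293. Acinar cells held 45.4 and 42 CPM from 25 UMIs in each library. Control striated duct cells had 0 UMIs, which allows up to 52.2 CPM when 3 counts are set as the limit, and IR striated duct cells held 46.8 from 3 UMIs. Dendritic cells, highest for Malat1, had 0.169 Kcnq1ot1 UMIs per 100 Malat1 UMIs in both libraries, against 2.45 and 2.94 in NK cells.

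Gm42418 ran the other way. Macrophages with 9685 CPM (8960 to 10453), acinar cells with 9565 (9309 to 9827) and striated duct cells with 8728 (7981 to 9526) were highest in control, and their intervals overlapped. B cells held 4749 and the S100a8/S100a9 cluster was lowest at 2550. In IR striated duct cells were highest at 4210 and dendritic cells lowest at 832. Levels differed 3.80-fold between the highest and lowest class in control and 5.06-fold in IR, a narrower spread than the 31.5-fold and 16.8-fold of Malat1. Gm42418 was also the most widely detected, with a UMI in 99.8% of kept control cells and 94.6% of kept IR cells, and also in 99.3% and 85.7% of barcodes under 200 genes. As CPM of all UMIs, acinar cells held 1781 in control and 541 in IR, below B cells at 4391 and 1547. The high place of acinar cells thus depended on the total, while macrophages still held 7140 and striated duct cells 6321 in control.

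Lars2 was highest in Etv1+ cells, with 531 CPM (497 to 567) in control and 165 (143 to 191) in IR. In control it was followed by striated duct cells at 435, macrophages at 382, acinar cells at 338 and intercalated duct cells at 324, each overlapping the next. Lymphocyte classes were lower, with 144 in B cells and 91.5 in NK cells. In IR the same B cells and NK cells held 68.6 and 59.9. As CPM of all UMIs, Etv1+ cells held 135 in control and 48.1 in IR, below endothelial cells at 172 and 94.0. The first place of Etv1+ cells thus depended on the total. The order of the 16 classes was alike in the 2 libraries for all 5 RNAs, with Spearman correlations of 0.924 for Malat1, 0.868 for Neat1, 0.894 for Kcnq1ot1, 0.868 for Gm42418 and 0.782 for Lars2. The classes of a library share depth and free RNA, and they were clustered together.

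**Figure D1:**
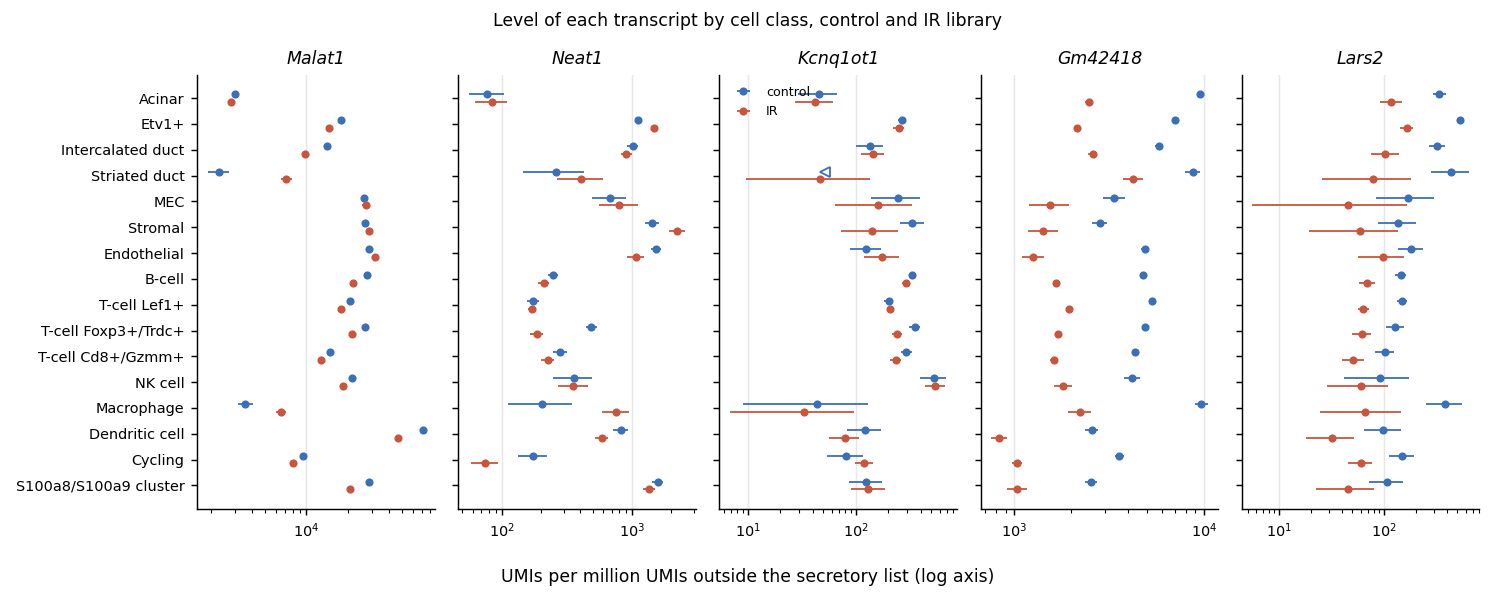
Levels of the 5 RNAs in 16 cell classes, as CPM outside the secretory list on a log axis, with control in blue and IR in red, and bars for the 95% counting interval; the open triangle is the limit for 0 UMIs. Malat1 was lowest in acinar, macrophage, striated duct and cycling cells, where Gm42418 was at 9565, 9685, 8728 and 3583 in control, and the red Gm42418 points lie left of the blue points in each class.

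IR and control were compared class by class as the ratio of CPM of all UMIs. A gene was called by size when it had 20 or more UMIs over both libraries, a ratio of at least 1.5 or at most its inverse, and an interval that excluded 1. Of the 16 classes 11 had at least 50 cells in each library and were called.

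Gm42418 was lower in IR in all 16 classes. In B cells it had 10205 UMIs in control and 3195 in IR, or 4391 and 1547 CPM of all UMIs, a ratio of 0.352 (0.338 to 0.367). In acinar cells 5269 and 1476 UMIs gave 1781 and 541 CPM of all UMIs, a ratio of 0.304 (0.287 to 0.322). In Lef1+ T cells the ratio was 0.368 (0.357 to 0.378) and in Etv1+ cells 0.348 (0.333 to 0.364). The ratio thus stood in a narrow range in classes as unlike as B cells and acinar cells. Over the 11 classes it ran from 0.255 in macrophages to 0.452 in intercalated duct cells, with a median of 0.352, while the median ratio of all genes was 1.09 in B cells and 1.25 in acinar cells.

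Lars2 was also lower in IR in all 16 classes. In B cells 310 control and 132 IR UMIs gave 133 and 63.9 CPM of all UMIs, a ratio of 0.479 (0.388 to 0.589). In acinar cells 186 and 70 UMIs gave a ratio of 0.408 (0.305 to 0.540), and in Etv1+ cells 900 and 190 UMIs gave 0.356 (0.303 to 0.417). Its ratios over the 11 classes ran from 0.110 in striated duct cells, from 25 and 5 UMIs, to 0.498 in Cd8+ T cells, with a median of 0.416.

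Both RNAs were called lower in 11 of 11 classes. The share of all tested genes called lower was 1.32% in acinar cells, 1.36% in Etv1+ cells, 4.96% in intercalated duct cells and 45.4% in striated duct cells. It was 2.61% in B cells, 1.97% in Lef1+ T cells, 3.77% in Foxp3+/Trdc+ T cells and 3.02% in Cd8+ T cells. In macrophages it was 7.04%, in cycling cells 1.86% and in the S100a8/S100a9 cluster 9.07%. Since these RNAs were chosen with their ratios known, nothing was read from the counts against these shares. In striated duct cells the median ratio of all genes was itself 0.551, and the secretory share was 27.6% in control and 55.5% in IR.

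Malat1 was called lower in none of the 11 classes, and its median ratio was 0.858. In B cells it had 59979 and 42398 UMIs, or 25810 and 20528 CPM of all UMIs, a ratio of 0.795 (0.786 to 0.805). The interval lay wholly below 1 in 8 of the 11 classes. In acinar cells the ratio was 1.08 (1.01 to 1.16) over all UMIs and 0.925 outside the secretory list, so its direction there depended on the total. Malat1 was called higher in 2 classes, macrophages at 2.04 (1.76 to 2.38) and striated duct cells at 1.93 (1.58 to 2.36). These are the same 2 classes in which 5 cells held most of the Malat1 UMIs. The share of all tested genes called higher was 16.3% in macrophages and 5.16% in striated duct cells. In the other classes it was 13.8% in acinar cells, 12.2% in Etv1+ cells, 6.14% in intercalated duct cells and 5.05% in the S100a8/S100a9 cluster. In B cells it was 8%, in Lef1+, Foxp3+/Trdc+ and Cd8+ T cells 11.8%, 8.52% and 8.92%, and in cycling cells 20.5%.

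Neat1 was called lower in 2 classes and higher in 2. In Foxp3+/Trdc+ T cells 381 control and 279 IR UMIs gave 452 and 176 CPM of all UMIs, a ratio of 0.389 (0.332 to 0.455), and in cycling cells the ratio was 0.444 (0.312 to 0.635). Of the 62 control UMIs in cycling cells, 32 lay in 1 cell and 50 in 5 cells, so this value rests on few cells. In Etv1+ cells it was higher at 1.52 (1.42 to 1.62). Outside the secretory list the Etv1+ ratio was 1.32 and no longer passed the size rule, which 6.05% of all genes passed there. In macrophages the ratio was 4.09 (2.28 to 7.87), and 60 of the 68 IR UMIs lay in 1 cell. The Foxp3+/Trdc+ change did not rest on few cells, since the 5 richest held 19.9% of control and 7.89% of IR UMIs.

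Kcnq1ot1 was called lower in none of the 11 classes and had a median ratio of 1.04. It was called higher in cycling cells alone, at 1.53 (1.01 to 2.39) from 29 and 116 UMIs. Outside the secretory list the ratio was 1.47, under the size rule that 17.4% of all genes passed. The median ratio of all genes in cycling cells was itself 1.42 over all UMIs and 1.37 outside the list. It was 1.11 when mitochondrial and haemoglobin UMIs were also left out. This class also carried 3 erythroid markers, with the haemoglobin gene Hbb-bt among its leading genes.

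**Figure D2:**
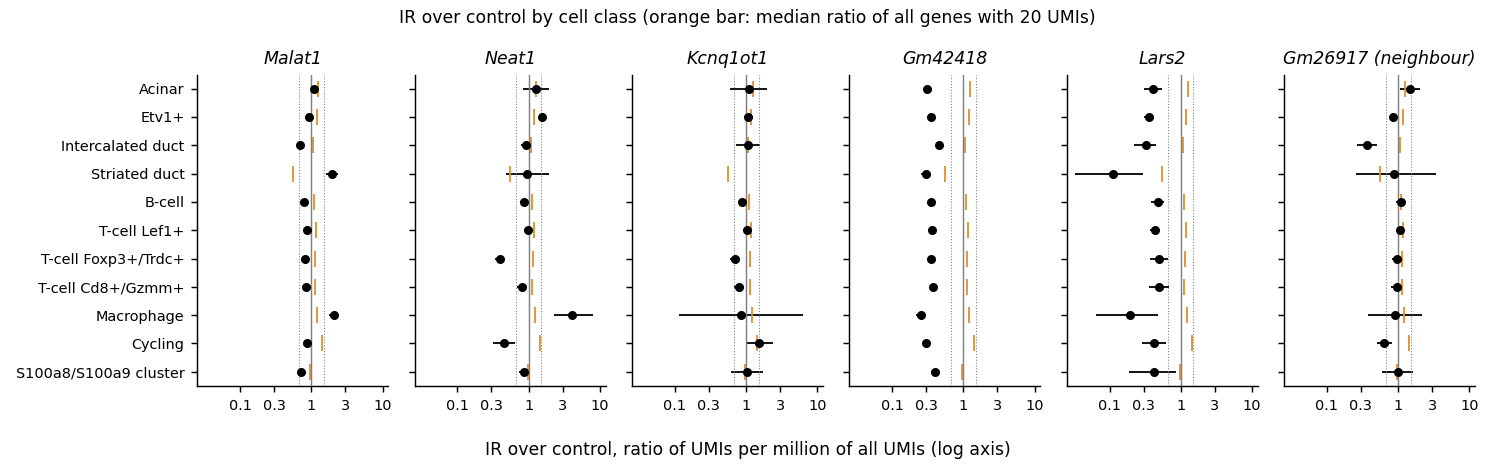
IR over control in the 11 classes with at least 50 cells in each library, as a ratio of CPM of all UMIs on a log axis, with 95% counting intervals; dotted lines mark the size rule of 1.5 and orange bars the median ratio of all tested genes. All Gm42418 and Lars2 points lie below the lower dotted line, while the points of the neighbouring gene Gm26917 have a median of 0.961.

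Gm26917, which ends at chr17:39846341 on the same strand just before Gm42418 begins, was called lower in 2 of the 11 classes, intercalated duct cells at 0.364 and cycling cells at 0.641. The 16S mitochondrial ribosomal RNA mt-Rnr2 was called lower in none and higher in 2, with a median of 1.06 and the highest ratio, 6.86, in striated duct cells. Of the other rRNA and small structural RNA genes, 5 had 20 UMIs in B cells and none was called in either direction, with a median of 0.985. In acinar cells 4 were tested and 2 were called higher, with a median of 1.81, where 13.8% of all genes were called higher. In Etv1+ cells 1 of 5 was called higher, where 12.2% of all genes were. Among the other mitochondrial tRNA synthetases and their partners, 16 were tested in B cells and none was called, with a median ratio of 1.17 against 1.09 for all genes. In all kept cells, in CPM outside the secretory list, 21 others were tested, none was called lower and 2 were called higher, Rars2 at 1.53 and Qrsl1 at 1.70, while Lars2 stood at 0.330 (0.306 to 0.356). In that comparison 9.1% of all genes were called higher and 10.5% lower, and the mix of cell types differed between the libraries.

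Genes of proteins that gather with the nuclear RNAs were read in the same way. Of 16 paraspeckle protein genes in B cells, Rbmx alone was called higher and none lower, with a median ratio of 1.09. Of 22 speckle protein genes, the splicing kinase Clk1 alone was called higher and none lower, with a median of 1.15. In acinar cells 8 of 20 speckle genes were called higher over all UMIs and 5 outside the secretory list, where 5.97% of all genes were, and none was called lower. For paraspeckle genes these counts were 2 and 1 of 12. Of the other nuclear long RNAs in all kept cells outside the secretory list, 8 were tested: Peg13 was called higher at 1.62, and Meg3 at 0.323 and Mir99ahg at 0.461 were called lower. Xist, with 10033 and 16087 UMIs, stood at 1.20 (1.18 to 1.24). Of all genes 9.1% were called higher there and 10.5% lower, and the mix of cell types differed between the libraries.

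In the Kcnq1 domain 5 genes other than Kcnq1ot1 were tested in B cells and none was called. In all kept cells outside the list 9 were tested. Tspan32 was called higher at 1.70, and Cdkn1c at 0.496, Ascl2 at 0.368 and Kcnq1 at 0.137 from 22 and 4 UMIs were called lower. Of the spliced host genes of small nucleolar RNAs, 16 were tested there, with Snhg1 called higher at 1.64 and Snhg18 lower at 0.525. Of all genes 9.1% were called higher and 10.5% lower in this pooled comparison. Since the mix of cell types differed between the libraries, these ratios cannot be told apart from a difference in cell mix.

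All deposited barcodes were next ordered by secretory share, the percentage of their UMIs on the secretory list, with barcodes under 200 genes included. Malat1 in control was 22079 CPM in 2430 barcodes with a share under 10%. It rose to 43871 between 10% and 20% and fell to 23588 between 40% and 50% and to 5472 between 80% and 90%. In IR the same bins held 19204, 29197, 20172 and 2292. Barcodes at 80% to 90% thus held 0.248 (0.239 to 0.257) of the level under 10% in control and 0.119 (0.110 to 0.129) in IR.

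Gm42418 in control was 4294 CPM under 10%, reached 28803 between 40% and 50%, and was 6882 between 70% and 80% and 8865 between 80% and 90%. In IR it was 1647 under 10%, 7422 between 40% and 50% and 2814 between 80% and 90%. The ratio of the bin at 80% to 90% over that under 10% was 2.06 (2.0 to 2.13) in control and 1.71 (1.59 to 1.83) in IR. It was above 1 where that of Malat1 was below 1. Over all UMIs this ratio fell below 1 for Gm42418 as well, at 0.355 in control and 0.302 in IR, because the secretory UMIs are then part of the total.

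Lars2 followed Gm42418, with 144 CPM under 10%, 3084 between 40% and 50% and 323 between 80% and 90% in control. In IR these values were 61.4, 1146 and 139. Neat1 peaked at 1823 between 50% and 60% in control and at 2190 between 40% and 50% in IR, from 400 and 277 under 10%. Kcnq1ot1 fell from 228 to 45.6 CPM in control and from 218 to 17.4 in IR between the lowest bin and 80% to 90%.

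The middle bins differed in make-up. Between 20% and 50% in control the mitochondrial share of UMIs was 12.7% to 16% and the median depth 777 to 804 UMIs, against 2.88% and 3011 UMIs under 10%. In kept cells, which have at most 5% mitochondrial UMIs, the middle peak was lower. At 40% to 50% Gm42418 was 11716 CPM in control and 2498 in IR, and Lars2 440 and 236. Under 10% the kept cells held 4405 and 1610 for Gm42418 and 123 and 58.2 for Lars2, so levels were still above these in the middle bins. The part of low depth was not tested, and the median depth of kept control cells at 40% to 50% was 720 UMIs.

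The bin of 90% to 100% had 8 control and 2 IR barcodes and was left out of the counts of bins. IR was below control in 9 of the 9 other bins for Gm42418, at 0.176 to 0.384 with a median of 0.317, and in 9 of 9 for Lars2, at 0.159 to 0.430. Malat1 was also below control in 9 of 9 bins, at 0.419 to 0.870.

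**Figure D3:**
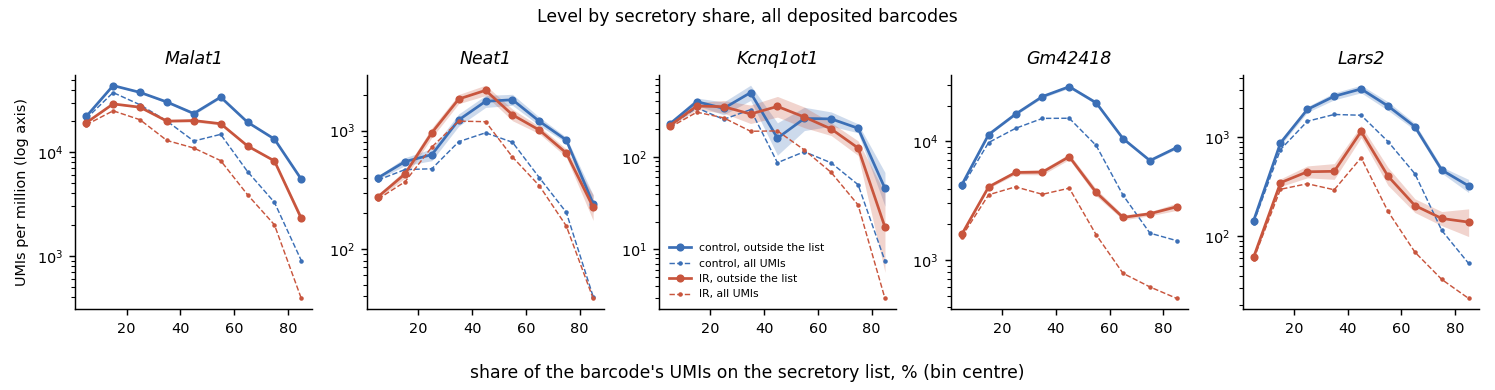
Level of each RNA against the secretory share of the barcode in bins of 10 percentage points, all deposited barcodes, log axis; solid lines are CPM outside the secretory list with the 95% counting interval shaded, dashed lines CPM of all UMIs. Solid Malat1 lines fall towards 5472 in control and 2292 in IR at 80% to 90%, while solid Gm42418 lines peak at 28803 and 7422 between 40% and 50%.

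The relation was also read inside single classes, a step added after the data were seen. Among control B cells Gm42418 rose with the secretory share from 3834 CPM in 250 cells under 5% to 5166, 5817 and 6414 in those at 5% to 10%, 10% to 20% and 20% to 50%. In IR B cells the same bins held 1425, 1793, 2286 and 2220. Malat1 in control B cells went from 25948 to 33288 CPM over these bins and in IR B cells from 22664 to 18937. Malat1 therefore did not fall with secretory share within control B cells. For Gm42418 in B cells the highest of the 4 IR values lay below the lowest of the 4 control values. Other classes differed. In IR Lef1+ T cells Gm42418 changed little, with 1868, 2051, 2071 and 1962 CPM over the 4 bins. Control Lef1+ T cells held 4906, 5794 and 5843 in the bins up to 20%. Among IR acinar cells it was 2750 (2240 to 3342) in 29 cells at 20% to 50% and 2451 (2322 to 2584) at 50% to 90%. Malat1 in these acinar cells fell from 12471 to 2148.

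Etv1+ cells at or above a secretory share of 50% and below it were then compared. The 49 control and 68 IR cells below 50% held 77240 and 43789 CPM of Malat1, against 16490 and 12792 in the 202 and 173 cells above. Gm42418 was 25035 and 6799 below and 6607 and 1849 above, and Lars2 2184 and 523 below and 490 and 143 above. In the control cells below 50%, 1 cell held 40 of the 89 Lars2 UMIs and 5 cells held 44.4% of the Gm42418 UMIs. Neat1 was 8222 and 8310 below and 932 and 1029 above. Thus all 4 RNAs were higher in the secretory-poor cells, which had median depths of 993 and 758 UMIs against 31157.5 and 14744.

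Of the barcodes outside the kept cells, those under 200 genes split the 5 RNAs into separate groups, while those over 5% mitochondrial did not. Barcodes under 200 genes held 551 CPM of Malat1 in control and 635 in IR, against 21906 and 17741 in kept cells. The ratios were 0.0251 (0.0234 to 0.0270) and 0.0358 (0.0325 to 0.0394). For Kcnq1ot1 they were 0.0217 and 0.0354, from 7 and 5 UMIs, and for Neat1 0.0985 and 0.166. All 3 nuclear RNAs were thus lower in these barcodes in both libraries, as were 85.8% of all genes in control and 65.6% in IR.

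Gm42418 was 10475 CPM in barcodes under 200 genes against 5373 in kept cells of control, a ratio of 1.95 (1.91 to 1.99), and 4467 against 1783 in IR, a ratio of 2.51 (2.41 to 2.60). Lars2 was 1162 against 223 in control, a ratio of 5.21 (4.88 to 5.56), and 606 against 73.6 in IR, a ratio of 8.23 (7.32 to 9.24). These 2 RNAs were called higher in both libraries, where 0.43% of all genes in control and 0.45% in IR were called higher. The set is defined by its low number of genes, so most genes had to be lower in it. These shares are thus set largely by the filter, and nothing was read from the calls against them. These barcodes held 25.3% of all control Lars2 UMIs and 18.6% of all IR Lars2 UMIs, but 0.244% and 0.137% of the Malat1 UMIs.

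Of the list of rRNA genes, in which Gm42418, Gm26917 and Lars2 were placed too, 7 were tested in these barcodes. In each library 5 were called higher, which were Gm42418, Gm26917, Lars2, mt-Rnr1 and mt-Rnr2. Of the 21 mitochondrial tRNA synthetases and partners tested in control, Lars2 alone was called higher and 17 were called lower. All 12 mitochondrial protein genes tested were called higher in both libraries. Kept cells were limited to 5% mitochondrial UMIs and barcodes under 200 genes were not. The calls of mitochondrial genes, mt-Rnr1 and mt-Rnr2 among them, were thus favoured by the filter and are no separate result. Haemoglobin genes made up 62.2% of the UMIs in control and 48.4% in IR, and Hbb-bs alone took 56.0% of the UMIs in the 277 control barcodes with a secretory share under 10%.

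Because haemoglobin and mitochondrial UMIs fill the total, the levels were also set against the UMIs left without them, a step added after the data were seen. The ratio to kept cells was then 15.3 in control and 15.1 in IR for Gm42418, and 40.8 and 49.5 for Lars2. For Malat1 it was 0.197 and 0.215 and for Kcnq1ot1 0.169 and 0.213. For Neat1 it was 0.771 (0.599 to 0.977) and 0.998 (0.719 to 1.35), so the lower level of Neat1 was small in control and was not detectable in IR on this total.

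Barcodes with at least 200 genes and over 5% mitochondrial UMIs held more of all 5 RNAs than kept cells. The ratios in control and IR were 2.46 and 1.86 for Malat1, 2.28 and 2.32 for Neat1, 1.92 and 1.96 for Kcnq1ot1, 2.95 and 2.43 for Gm42418 and 7.37 and 5.01 for Lars2. Their medians were 939 and 857.5 UMIs. Mitochondrial UMIs, which the filter used, made up 13.8% of the total in control and 11.7% in IR, and 9.73% and 19.3% in barcodes under 200 genes. Both sets were thus above kept cells in Gm42418 and Lars2, and they differed in Malat1.

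IR was below control for Gm42418 in each of these sets, at 0.332 (0.327 to 0.337) in kept cells, 0.274 (0.267 to 0.280) in those over 5% mitochondrial and 0.426 (0.410 to 0.444) in those under 200 genes. Lars2 stood at 0.330, 0.224 and 0.521. Malat1 stood at 0.810, 0.613 and 1.15 (1.02 to 1.30). Under 200 genes its direction depended on the total, since it was 0.882 (0.781 to 0.995) when mitochondrial and haemoglobin UMIs were also left out. In barcodes under 200 genes the Gm42418 ratio was below 1 in 9 of 9 secretory bins up to 90%, at 0.184 to 0.402.

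**Figure D4:**
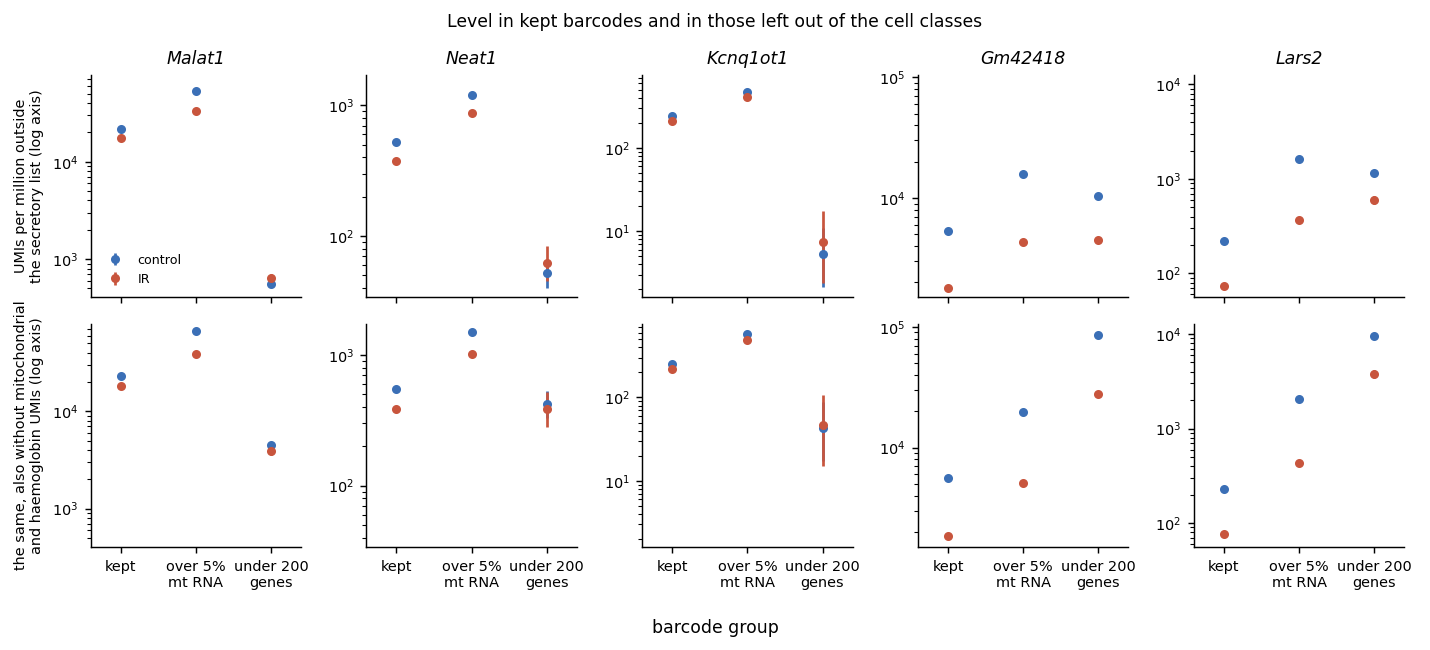
Level of each RNA in kept cells, in barcodes over 5% mitochondrial UMIs and in barcodes under 200 genes, with 95% counting intervals on log axes; the upper row is CPM outside the secretory list, the lower row also without mitochondrial and haemoglobin UMIs. Under 200 genes Malat1 fell to 551 in control and 635 in IR in the upper row, and Gm42418 rose to 10475 and 4467.

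Gm42418 and Lars2 lie on different chromosomes and were set against each other directly. Over all kept cells there were 4.15 (3.98 to 4.32) Lars2 UMIs per 100 Gm42418 UMIs in control and 4.13 (3.87 to 4.4) in IR, so the pooled levels of the pair fell alike. Etv1+ cells gave 900 of the 2284 Lars2 UMIs in control and 190 of the 1004 in IR, so this pooled ratio also depends on the mix of classes. The ratio was not the same in all classes. It was 7.53 (7.03 to 8.06) in control and 7.70 (6.61 to 8.93) in IR Etv1+ cells, against 2.78 (2.47 to 3.11) and 3.26 (2.88 to 3.68) in Lef1+ T cells. Acinar cells had 3.53 and 4.74 and B cells 3.04 (2.70 to 3.40) and 4.13 (3.44 to 4.92), where the IR value was the higher. Over the 16 classes the median was 3.89 in both libraries. Barcodes under 200 genes had 11.1 in control and 13.6 in IR, and those over 5% mitochondrial 10.4 and 8.50, all above the ratio in kept cells.

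**Figure D5:**
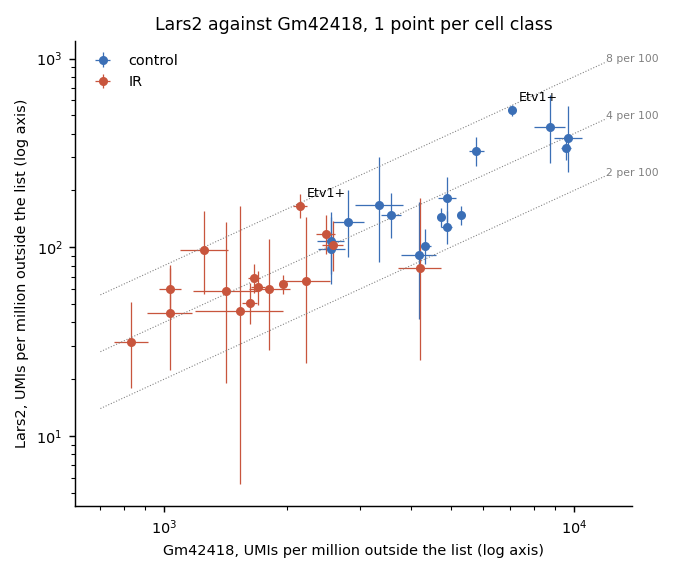
Lars2 against Gm42418 in 16 cell classes of each library, both as CPM outside the secretory list on log axes, with 95% counting intervals; dotted lines mark 2, 4 and 8 Lars2 UMIs per 100 Gm42418 UMIs. The red IR points lie along the same band as the blue control points at lower levels, and the Etv1+ points lie near 8 per 100, at 7.53 and 7.70.

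The genes whose class pattern was most like each RNA were taken as the 5 with the highest Pearson correlation of log2 level, with 10 added, over 13 classes in both libraries, 26 points and 8381 genes. The points share libraries and depth, and the values are a description. Malat1 was nearest to Son, a core speckle protein, at 0.920, then Map4k4, Diaph1, Hivep1 and Dleu2 down to 0.887. Neat1 was nearest to Mbnl2, a splicing regulator, at 0.831, then Cpeb4, Zfand5, Sash1 and Ndst1 down to 0.809. Kcnq1ot1 was nearest to Ogt at 0.891, then BC005561, Snrnp70, Trpm7 and Luc7l2 down to 0.863.

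For Gm42418 the nearest of the 8381 genes was Lars2 at 0.878, and for Lars2 it was Gm42418, over points pooled from both libraries, in which both RNAs were lower in IR. Within control alone their correlation was 0.851 and within IR alone 0.596. The first rank did not hold within IR for either RNA, nor within control for Lars2. Of the other genes named here for Gm42418, none was nearer to it within control, with Gm10076 next at 0.760. In IR Ndufa2 at 0.775 was nearer to Gm42418 and Dpm3 at 0.803 nearer to Lars2, and in control Romo1 at 0.889 was nearer to Lars2. The other genes near Gm42418 were Gm10076, Ndufa3, Rpl41 and Ndufa2, and those near Lars2 were Romo1, Dpm3, Mrpl52 and Ggnbp1, most of them short mitochondrial or ribosomal protein genes. Malat1 correlated at 0.693 with Kcnq1ot1 and at 0.514 with Neat1, and at -0.423 with Gm42418, over the pooled points. With Gm42418 the value was -0.802 within control and -0.633 within IR. The lists were not stable: with Spearman correlation 2 of the 5 genes named for Malat1 were again among the nearest 5, 3 for Neat1, 0 for Kcnq1ot1 and 1 each for Gm42418 and Lars2. By Spearman the nearest gene to Gm42418 was Scgb2b2, and Lars2 came second.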

How the data were processed

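Single cells of dissociated parotid gland were made into 10x v3 libraries of polyA RNA and sequenced on a NextSeq500. Per the labels the authors used Cell Ranger 3.0.1, with mm10 (GRCm38) as genome, and Seurat 3. The deposited values are raw counts of UMIs for each gene in each barcode, with no further scaling, and the step that told cells from empty droplets is not given in the sources used here. Each library's depth is 22707876 (control) or 23890757 (IR) UMIs.

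The authors' limits on cells (200 genes, 5% mitochondrial UMIs) were applied to the deposited counts. Anchor integration of both libraries and clustering used Seurat 5.3.0 and R 4.3.3 (2000 variable genes, 30 components, resolution 0.3, 14 clusters), and the endothelial cluster was clustered again (20 components, resolution 0.8). A cluster was named where at least 3 markers of a type had 2 times the CPM of other cells. It stayed unnamed if its leading genes held more markers of another type than of its own. Doublets were scored with Scrublet in scanpy 1.11.5 and kept. UMIs were summed per class and library, with exact Poisson, Clopper-Pearson or conditional binomial 95% intervals from scipy 1.17.1. No p-value was computed, since a cell is no replicate. Transcripts came from GENCODE M21, whose version of the identifier was 1 above that in the files for 4 of the 5 genes, and rRNA matches from blastn 2.17.0. The 5 members and all lists were chosen with earlier results of these data known. Beside the members, the text names the 5 genes most like each, and list genes with at least 100 UMIs or few enough calls to name. The steps were tested on simulated data. Alternatives covered the total, TMM factors, filters, doublets, resolution, thresholds, bins and lists.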

Additional observations from a re-analysis of the deposited data

How the results depend on the processing

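There is 1 library per condition, so no replicate could be left out. No paired analysis was possible because the groups hold 1 library each. The acinar Malat1 ratio of IR over control, 1.08 as reported, was 0.925 outside the secretory list, 0.937 also without mitochondrial and haemoglobin UMIs, 0.850 with TMM factors, 1.30 at a mitochondrial limit of 10%, 1.20 with no limit, 1.45 with at least 500 genes and 1.16 at resolution 0.4, so no direction was held across these settings, and the cause was not tested. The B-cell Malat1 ratio, 0.795, was 0.725 with TMM factors, 0.746 at the 10% limit and 0.733 with no limit. Gm42418 in acinar cells, 0.304, was 0.259 and 0.262 on the 2 other totals, 0.238 with TMM factors and 0.280 with no mitochondrial limit, and in B cells, 0.352, it was 0.321 with TMM factors. The number of members called lower stayed at 2 in both classes in the alternatives run.

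The control ratio of the bin of 80% to 90% secretory share over that under 10% was 0.248 for Malat1 and 2.06 for Gm42418. As CPM of all UMIs it was 0.0426 and 0.355, which turned the direction for Gm42418, as it did for Lars2 in control at 0.387, for Gm42418 in IR at 0.302 and for Lars2 in IR at 0.401. That total holds the secretory UMIs themselves. Without mitochondrial and haemoglobin UMIs the 2 ratios were 0.216 and 1.80, with at least 200 genes 0.222 and 1.86, with the mitochondrial limit as well 0.231 and 1.89, with bins of 20 points 0.218 and 1.72, and with 5 secretory genes 0.138 and 1.29, where Lars2 turned to 0.923. Depth limits Kcnq1ot1 and Lars2 in the small classes, where 20 UMIs or fewer leave wide intervals.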

Other observations

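Gm26917, the gene beside Gm42418 on the same strand, stood in IR at 0.616 (0.595 to 0.637) of control over all barcodes, 0.806 in kept cells and 0.486 in barcodes over 5% mitochondrial, outside the secretory list. It was below control in 7 of 9 secretory bins, with a median of 0.589. Over the 16 classes the median was 4.11 Gm26917 UMIs per 100 Gm42418 UMIs in control and 9.89 in IR. Xist, a nuclear RNA that was not among the 5, fell with secretory share as Malat1 did, with 0.201 (0.165 to 0.243) of the level under 10% at 80% to 90% in control and 0.0862 (0.0593 to 0.121) in IR. It was also low in barcodes under 200 genes, with 17 UMIs in control and 19 in IR, at 0.0130 and 0.0239 of the level in kept cells.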
